A study of Schizosaccharomyces pombe with 2 samples.

Results

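The regions described here were the 230 condensin peaks whose summit lay in a gap between 2 neighbouring protein-coding genes on the chromosome arms of fission yeast, where those genes pointed towards each other (a convergent gap, 67 summits) or the same way (a tandem gap, 163 summits). A summit counted when it lay outside every protein-coding gene, over 50 kb from a chromosome end and outside the 3 centromere regions. These 230 made up 34.4% of the 668 peaks in the deposited list and 38.4% of the 599 arm peaks. Of the remaining arm peaks, 295 had the summit inside a protein-coding gene and 74 lay in a divergent gap, between genes that pointed away from each other.

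The study sequenced 1 chromatin immunoprecipitation (ChIP) library and 1 input library from the Schizosaccharomyces pombe strain YUK421 Cnd2-HA, in which the condensin subunit Cnd2 carries an HA tag. Both libraries came from cells in mitosis, grown in EMM with glutamate, arrested with 5 µg/mL thiamine and fixed in 0.5% formaldehyde for 30 min at 25 ºC, and the ChIP used an antibody against HA. Of 39685815 ChIP fragments 25933013 entered the peak calls, and of 60564558 input fragments 54272630 did. With 1 library a group there was no replicate check and no test between samples, and every interval below is an exact 95% interval that covers counting error only.

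Condensin is a ring-shaped complex of the SMC family that extrudes and holds loops of DNA and compacts chromosomes for mitosis. Cnd2 is its kleisin subunit, the protein that closes the ring. Condensin is known to accumulate at highly transcribed genes, including those read by RNA polymerase III (tRNA and 5S ribosomal RNA genes), and near the ends where transcription terminates. A convergent gap holds 2 transcript 3′ ends, a tandem gap holds 1 3′ end and 1 start, and a divergent gap holds 2 starts, so the gap types separate those features.

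The sequences that recur under these summits are shown first. Of the tRNA genes near a summit in these gaps, 66 of 70 held the letters GTTCNANNC on the transcribed strand. This is a pattern for the B box, the internal promoter element that the polymerase III factor TFIIIC binds. The pattern stood in 91.2% of all 171 tRNA genes, searched the same way, so it describes tRNA genes in general. It stood in 1.59% of 2320 gap windows of 73 bp, the median length of a tRNA gene, with both strands searched. Printed here are 5 of the 6 tRNA genes with the strongest summits in these gaps, with the transcribed strand 5′ to 3′ (RefSeq, build ASM294v3) and the B box letters in capitals. They lie at III:2037352-2037422 (plus strand), III:1701899-1701972 (plus), II:2939715-2939786 (plus), III:2074991-2075062 (minus) and II:960729-960800 (plus).
SPCTRNAGLY.12: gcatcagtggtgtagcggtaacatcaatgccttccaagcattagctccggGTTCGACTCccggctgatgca
SPCTRNAASN.06: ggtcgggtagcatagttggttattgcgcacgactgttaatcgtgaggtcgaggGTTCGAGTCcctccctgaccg
SPBTRNAPRO.07: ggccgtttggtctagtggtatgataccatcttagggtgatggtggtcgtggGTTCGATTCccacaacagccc
SPCTRNAGLN.06: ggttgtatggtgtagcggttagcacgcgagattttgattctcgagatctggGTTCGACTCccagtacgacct
SPBTRNAHIS.02: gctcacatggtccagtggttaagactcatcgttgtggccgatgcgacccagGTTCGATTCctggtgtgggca

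Away from such genes, the convergent gaps with a summit had a median length of 294 bp, and tandem summits were densest a short way past a 3′ end. Whole convergent gaps with a summit are shown for mei4–act1 (II:1475286-1475484), cdt1–utp15 (II:478739-478912) and trm82–rpp0 (III:1980366-1980535), all on the plus strand, because each is short enough to print from one 3′ end to the other. Runs of 6 or more A or T would stand in capitals, and these gaps hold none.
mei4–act1: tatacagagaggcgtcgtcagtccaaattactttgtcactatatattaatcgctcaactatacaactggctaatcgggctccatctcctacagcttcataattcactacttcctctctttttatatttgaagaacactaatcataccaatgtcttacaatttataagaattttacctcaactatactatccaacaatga
cdt1–utp15: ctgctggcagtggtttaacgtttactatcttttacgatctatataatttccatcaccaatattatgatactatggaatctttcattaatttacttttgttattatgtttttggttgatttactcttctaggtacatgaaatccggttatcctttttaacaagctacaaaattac
trm82–rpp0: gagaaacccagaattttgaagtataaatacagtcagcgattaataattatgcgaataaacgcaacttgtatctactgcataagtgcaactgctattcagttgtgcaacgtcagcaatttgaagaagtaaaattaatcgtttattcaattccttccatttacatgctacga

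The first 300 bases past the 3′ end are shown for the upstream genes of 3 of the strongest tandem summits, on each gene's own strand and with runs of 6 or more A or T in capitals. They lie at II:3516568-3516867 (exg1, plus), I:4229990-4230289 (cdc22, plus) and II:625704-626003 (tef103, minus). The summits fell 143, 208 and 149 bp along these stretches.
exg1: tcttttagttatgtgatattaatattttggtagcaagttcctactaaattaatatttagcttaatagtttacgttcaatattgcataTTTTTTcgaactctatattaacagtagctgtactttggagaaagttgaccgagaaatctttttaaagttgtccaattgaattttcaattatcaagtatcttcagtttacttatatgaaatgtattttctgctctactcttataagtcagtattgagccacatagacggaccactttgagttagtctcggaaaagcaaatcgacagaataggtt
cdc22: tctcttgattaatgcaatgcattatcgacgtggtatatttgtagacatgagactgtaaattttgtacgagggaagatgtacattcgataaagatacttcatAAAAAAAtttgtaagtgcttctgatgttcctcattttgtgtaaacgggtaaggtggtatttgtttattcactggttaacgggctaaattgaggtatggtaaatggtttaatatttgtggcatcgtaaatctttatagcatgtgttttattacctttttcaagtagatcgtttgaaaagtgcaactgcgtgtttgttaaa
tef103: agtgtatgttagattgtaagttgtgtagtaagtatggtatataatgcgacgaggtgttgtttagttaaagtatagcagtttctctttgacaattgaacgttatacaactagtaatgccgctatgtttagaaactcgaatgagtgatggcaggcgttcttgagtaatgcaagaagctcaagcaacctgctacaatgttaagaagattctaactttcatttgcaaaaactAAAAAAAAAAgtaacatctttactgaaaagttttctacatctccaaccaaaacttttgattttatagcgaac

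Runs of AAAAAA or TTTTTT were not more frequent in the gaps with a summit than in the rest. Among tandem gaps of at least 300 bp, 25 of 46 stretches with a summit away from small RNA genes held such a run (54.3%), against 829 of all 1170 such stretches (70.9%). Among convergent gaps of at least 100 bp, the middle 100 bases held one in 14 of 45 gaps with a summit (31.1%) and in 114 of all 329 (34.7%). The median GC content was 33% in the tandem stretches with a summit against 30.3% in all of them, and 32% against 30% in the convergent middles. The letters in these windows say nothing about which protein binds there.

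Convergent gaps carried more summits for their length than tandem gaps. Of 1274 convergent neighbour pairs on the arms, 758 had no gap because their annotated transcripts met or overlapped, and the other 516 had a gap with a median length of 152 bp. Tandem pairs left 2112 gaps (median 336 bp) and divergent pairs 1234 (median 778 bp). A summit lay in 64 convergent gaps (12.4%, interval 9.68 to 15.6%), in 158 tandem gaps (7.48%, 6.40 to 8.69%) and in 70 divergent gaps (5.67%, 4.45 to 7.11%), beside 7.56% of all 3862 gaps. Per kb of gap, the convergent type held 0.402 summits and the tandem type 0.135, a ratio of 2.97 (2.20 to 3.97). The divergent gaps held 0.0619 summits per kb. With coding sequences in place of transcript bounds there were 154 convergent summits, and the density ratio was 2.62 (2.1 to 3.27); counting every gap that a peak overlapped raised the convergent share to 26.6%.

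That order depended on gap length. From 200 to under 500 bp, 20.5% of convergent gaps held a summit against 2.81% of tandem gaps, and the density ratio was 7.50 (4.12 to 13.8). Below 200 bp the ratio was 3.41 (1.41 to 8.41), and from 500 to under 1000 bp it was 2.40 (1.28 to 4.27). At 1000 bp and over, 25.7% of convergent and 22.8% of tandem gaps held a summit, and the ratio of 1.38 had an interval that spanned equality (0.684 to 2.56). None of 231 divergent gaps below 200 bp held one, which allows a share of up to 1.58%.

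**Figure D1:**
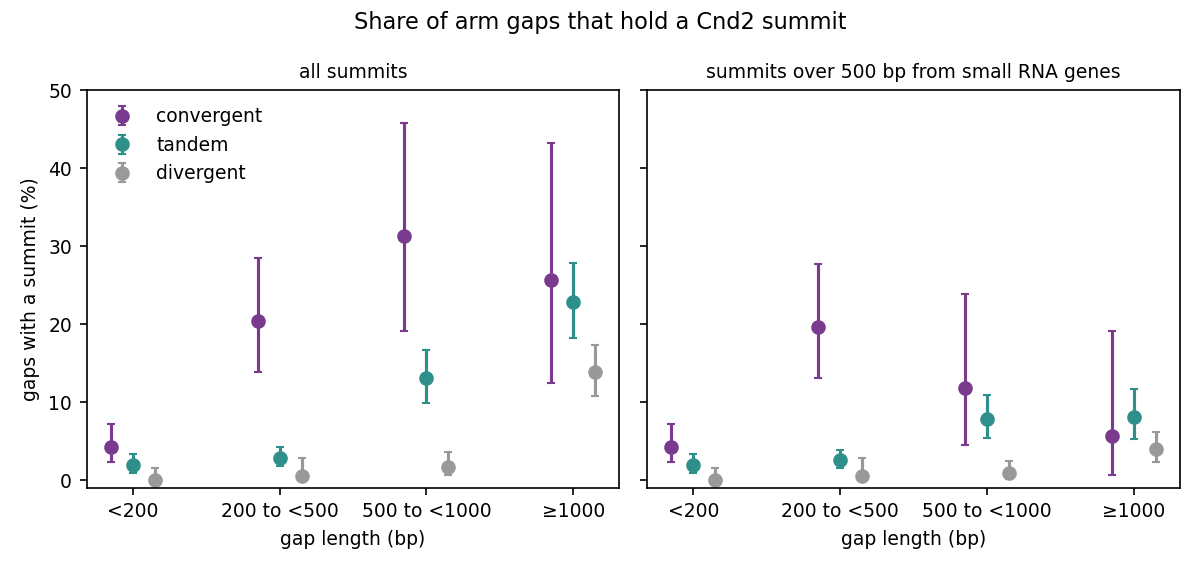
Share of gaps with a condensin summit (y axis, percent of gaps) by gap length (x axis, bp) for convergent, tandem and divergent gaps on the arms, for all summits (left) and for summits over 500 bp from small RNA genes (right), with exact 95% intervals as bars. Convergent gaps of 200 to under 500 bp stand at 20.5%, tandem gaps of the same length at 2.81%, and the intervals of these types overlap at 1000 bp and over.

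The gap types also differed in which RNA genes the summits sat on. A summit was called near a small RNA gene when it lay inside it or within 500 bp. In convergent gaps 17 of 67 summits (25.4%, 15.5 to 37.5%) were near a tRNA or 5S rRNA gene, 4 were near a small nucleolar or nuclear RNA gene, and 46 were near neither. In tandem gaps these numbers were 65 of 163 (39.9%, 32.3 to 47.8%), 6 and 92. Without summits near any small RNA gene, the shares of gaps with a summit were 8.92% convergent, 4.21% tandem and 1.78% divergent, and the density ratio of convergent to tandem gaps was 3.61 (2.48 to 5.20). By length, that ratio was 7.90 (4.25 to 14.8) from 200 to under 500 bp, 1.49 (0.510 to 3.62) from 500 to under 1000 bp and 0.625 (0.0721 to 2.48) in longer gaps.

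Almost every tRNA gene of these gaps had a condensin summit near it. For each RNA gene the summits of all arm peaks were counted, also those inside a protein-coding gene. A summit was near 17 of 17 tRNA genes in convergent gaps and 52 of 55 in tandem gaps, which left SPATRNAALA.01, SPBTRNATRP.02 and imt06 without one. The 5S rRNA genes, which encode the small RNA of the large ribosomal subunit, had a summit at 2 of 3 in convergent and 19 of 22 in tandem gaps. Small nucleolar RNA genes, which guide chemical modification of ribosomal RNA, had one at 9 of 24 and 6 of 12. In divergent gaps the counts were 40 of 43 tRNA, 7 of 11 5S and 5 of 8 small nucleolar RNA genes. The share of all gap positions within 500 bp of an arm summit was not computed, so these counts have no background beside them. The summits near tRNA and 5S genes in convergent and tandem gaps sat on or beside those genes. Of these, 10 of 17 convergent and 33 of 65 tandem summits fell inside the gene. All but 1 of the 82 fell within 20 bp of it.

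Peaks at tRNA and 5S genes were narrow and alike in height, whereas the others were broader and more uneven. The fold, the authors' ratio of ChIP coverage at the summit to the local input background, had a median of 2.92 (1.73 to 5.41, lowest to highest) for the 17 convergent tRNA and 5S summits and 2.64 (1.87 to 4.45) for the 65 tandem ones. Their median widths were 355 and 338 bp. Away from small RNA genes, the median fold was 1.94 (1.26 to 13.3) for 46 convergent summits and 1.76 (1.16 to 18.5) for 92 tandem summits, with median widths of 711.5 and 513 bp. The highest and the lowest folds in tandem gaps thus both belonged to summits far from a tRNA gene.

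A fold over 2 was reached by 16 of the 17 convergent and 62 of the 65 tandem summits at tRNA and 5S genes, and by 22 of the 46 and 33 of the 92 others, beside 40.4% of all arm peaks. The median background was lower at the tRNA and 5S summits, at 364 (convergent) and 351 (tandem), against 447 and 415 at the others. Their median coverage was 1132 and 949, against 942.5 and 796. The part of the background in the difference of folds was not tested. Wide peaks of at least 1000 bp numbered 15 of the 46 convergent and 26 of the 92 tandem others, but 1 of 17 and 2 of 65 at tRNA and 5S genes. Among the others, the wide peaks were also the taller ones, with a median fold of 2.78 against 1.60 for narrower convergent peaks and 3.62 against 1.63 for narrower tandem peaks. Over all members the median fold was 2.19 in convergent and 2.31 in tandem gaps, beside 2.40 in divergent gaps and 1.43 for summits inside genes. At the border of the rule, the 19 members within 50 bp of a flanking gene had a median fold of 1.76, and the 20 summits that lay inside a gene within 50 bp of such a gap had one of 1.70. The highest folds were 3.91 among those 19 and 24.4 among those 20, the latter above every member. Ranks below therefore hold only for summits that fell inside the gaps.

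**Figure D2:**
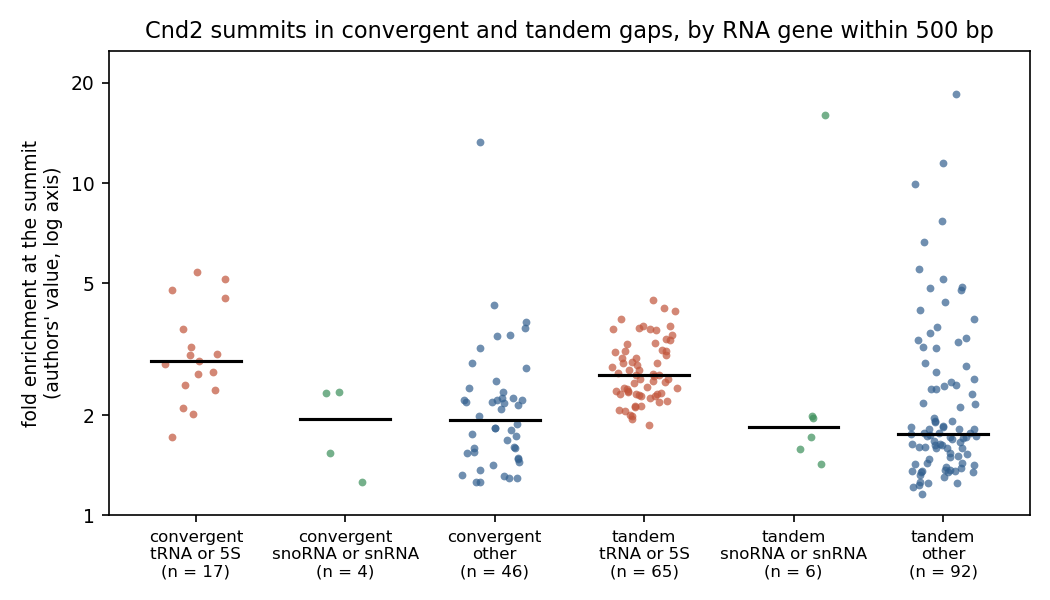
Fold of ChIP coverage over the local input background at each summit (y axis, log scale) for convergent and tandem gaps, split by whether the summit was near a tRNA or 5S gene, near a small nucleolar or nuclear RNA gene, or near neither; each point is 1 peak and the bar is the median. Tandem summits at tRNA and 5S genes lie between 1.87 and 4.45, while the others run from 1.16 to 18.5.

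The strongest convergent summit lay between eng1, the endo-glucanase that digests the septum so that daughter cells can part, and sod1, a superoxide dismutase. Its peak ran from I:999233 to 1003847 (build ASM294v2, as all peak coordinates here), with a ChIP coverage of 4919 over a background of 370, a fold of 13.3. The summit lay 223 bp past eng1 and 254 bp past sod1, and the peak covered 83.9% of eng1 and 100% of sod1. No other convergent summit passed 5.41-fold.

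Of the 12 strongest convergent summits, 6 were near a tRNA or 5S gene and 6 were not. SPCTRNAGLY.12 held the summit between set5, a histone lysine methyltransferase gene, and met1, with a coverage of 2471 over a background of 456 (5.41-fold). The summit between meu18 and stn1, the gene of a telomere cap subunit, stood at 5.14-fold next to SPBTRNAARG.05. SPCTRNAASN.06, between SPCC417.12 and SPCC417.15, stood at 4.78-fold, and SPBTRNAPRO.07, between ubp9 and SPBC1703.13C, at 4.51-fold. The pairs utp21–tfa2 (3.63-fold) and SPCC126.12–sap18 (3.22-fold) held the remaining 2. These peaks were 355 to 1107 bp wide.

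The 5 others among the 12, after eng1–sod1, included genes of metabolism, signalling and the cytoskeleton. The yak3–rpl801 gap, between an aldose reductase gene and a gene for a large ribosomal subunit protein, had a coverage of 1951 over 453 (4.30-fold). Next came pat1–mug124 at 3.83-fold, beside the gene of the kinase that holds cells out of meiosis, where the peak covered 96.7% of pat1. The gap of SPAC24B11.05 and sty1, the stress-activated MAP kinase gene, stood at 3.66-fold. The mei4–act1 gap, between a meiotic forkhead factor gene and the actin gene, stood at 3.46-fold, and its peak covered 60.7% of act1 and 22.1% of mei4. The cor1–rcm1 summit (3.49-fold) had a peak only 372 bp wide and lay 1 bp from srp7, the RNA gene of the signal recognition particle, which was not counted among the small RNA genes above.

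The strongest tandem summit lay 143 bp past exg1, a cell wall glucan 1,6-beta-glucosidase gene, and 751 bp before pmc4, a Mediator subunit gene. Its peak (II:3515008-3517482) had a coverage of 6402 over a background of 345, a fold of 18.5, and covered 79.4% of exg1 but 22 bp of pmc4. The next was at the small nucleolar RNA gene snoU14, between ldb1 and sol1, with 6350 over 394 (16.1-fold). The third, 290 bp past adg2 stood at 5085 over 442 (11.5-fold) before tpp1, the trehalose phosphatase gene. The fourth lay inside the long non-coding RNA prl53, between SPAC27E2.11C and SPAC27E2.03C, at 5142 over 517 (9.93-fold).

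Further strong summits lay past the 3′ ends of cdc22, tef103, pil1 and mid2. The summit 208 bp past cdc22, whose product makes deoxynucleotides as part of ribonucleotide reductase, had a coverage of 3211 over 416 (7.70-fold), and its peak covered 86.3% of cdc22. Past tef103, a translation elongation factor 1-alpha gene with near-identical copies elsewhere, it was 3154 over 474 (6.64-fold). Past pil1, the eisosome core gene, it was 3767 over 682 (5.52-fold). The mid2 gene, for an anillin-like septin organiser, had its summit at 310 bp with 1840 over 386 (4.75-fold). How reads with several matching places were treated is not given in the sources used here, which bears on tef103.

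Of the other strong tandem summits, 3 were in the long non-coding RNA nam1 between byr2 and mlo3 (4.85-fold), 202 bp past knh2 before rpl2302 (4.83-fold), and at SPCTRNAGLN.06 (4.45-fold). Of the 12 strongest, 1 was at a tRNA gene, 1 at a small nucleolar RNA gene and 10 at neither, and 11 of the 12 peaks were at least 1000 bp wide. In 9 of the 12 the summit lay within 310 bp of the upstream gene's 3′ end. That limit is the distance of the farthest of them, past mid2, so the count only describes these summits. The summits past adg2 and mid2 lay nearer the downstream start, at 242 and 124 bp from it.

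**Figure D3:**
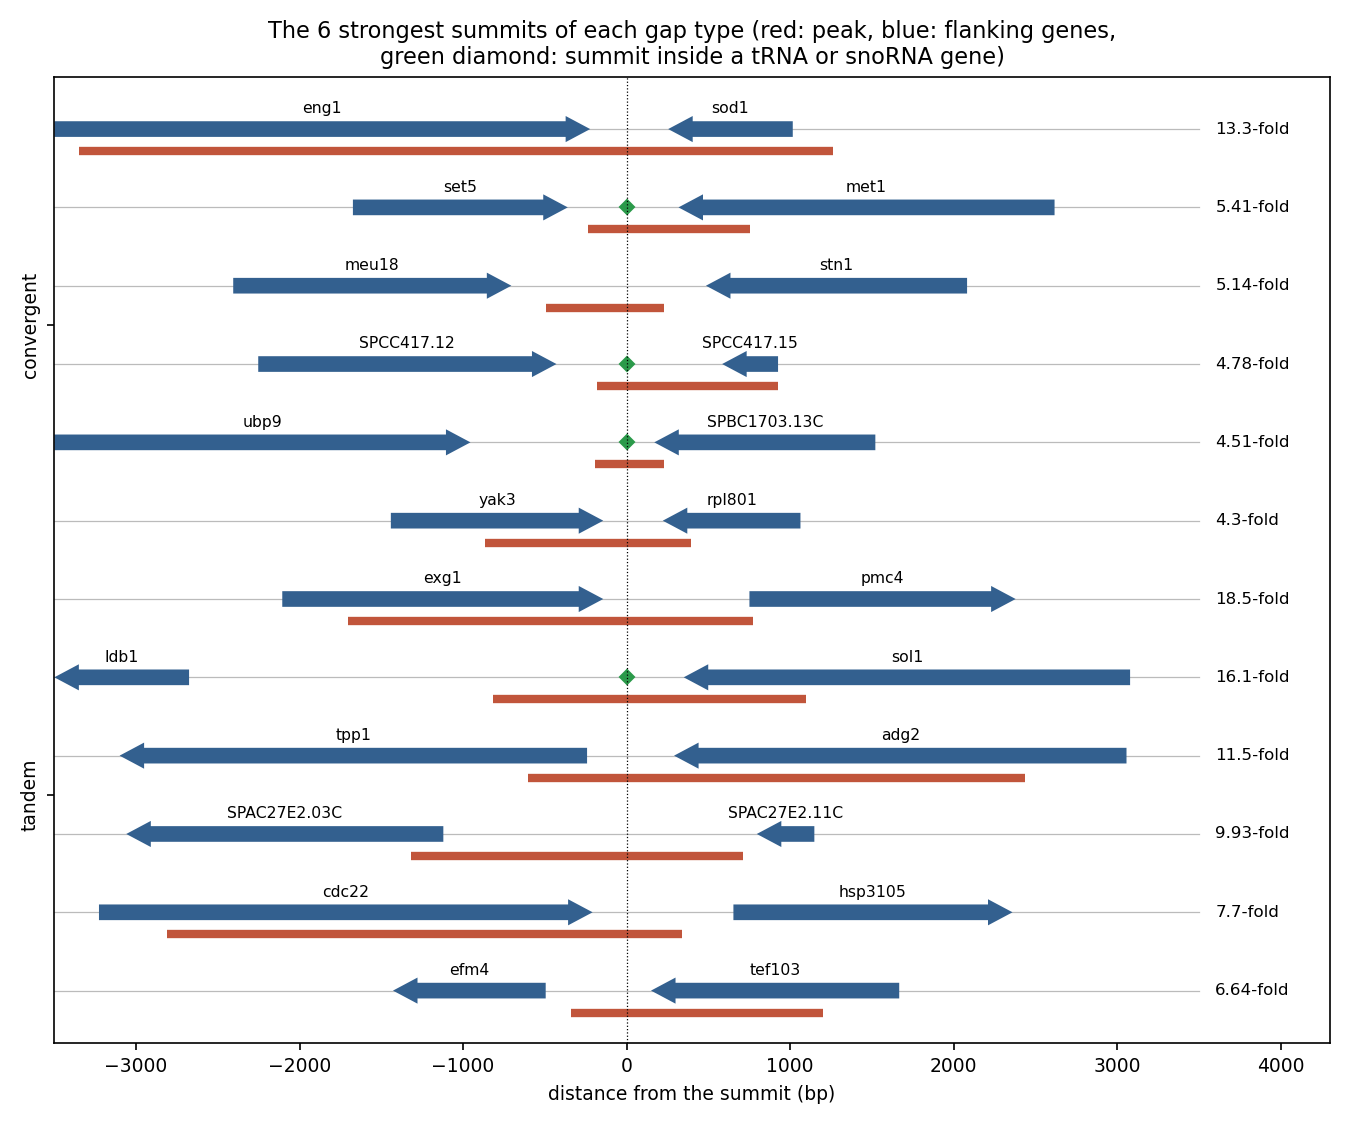
Maps of the 6 strongest summits of each gap type, drawn to scale around the summit (x axis, bp; genes longer than the window are drawn to its edge), with peaks in red, flanking protein-coding genes in blue with arrows in the direction of transcription, and a green diamond where the summit lies inside a tRNA or small nucleolar RNA gene. The peaks at eng1, exg1, adg2, cdc22 and tef103 extend back over the body of the gene whose 3′ end borders the gap. The peaks at the tRNA genes drawn are 425 to 1107 bp wide.

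Tandem gaps have 1 end of each kind, so they show which end the summits kept to. Over all 163 tandem summits, 112 (68.7%, 61.0 to 75.7%) lay nearer the upstream gene's 3′ end than the downstream gene's start. The tRNA and 5S summits made up much of this, with 58 of 65 nearer the 3′ end (89.2%). The tRNA and 5S genes themselves lay nearer the 3′ end in 63 of 77 cases in tandem gaps (81.8%), with or without a peak. Of the other 92 summits, 50 lay nearer the 3′ end (54.3%, 43.6 to 64.8%) and 1 was equally far from both. Among those with a fold over 2, 22 of 33 lay nearer the 3′ end (66.7%, 48.2 to 82.0%), and among those at or below 2, 28 of 59 (47.5%).

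Measured from the 3′ end, these 92 tandem summits were densest a short way past it. Summits over 100 and up to 200 bp past the end numbered 34, a density of 0.195 per kb of gap (0.135 to 0.273), against 0.0643 in the first 100 bp and 0.0327 beyond 1000 bp. The stretch over 100 and up to 300 bp past the end held 50 of the 92 (54.3%, 43.6 to 64.8%) and 25.5% of all tandem gap bases. The same distances before the downstream start held 18 of the 92 (19.6%, 12 to 29.2%). Within 100 bp of the downstream start lay 17 of the 92, among them the summit between nmd5 and arp6, which was 4.37-fold and lay 91 bp before arp6, the gene of an actin-related chromatin remodelling subunit.

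The promoters of the 36 genes with a tandem summit within 250 bp before their start were searched for short motifs on both strands, from 250 bases before to 50 after the start. TGACGT, the core of the Atf1 site, stood in 6 (16.7%), beside 5.91% of all promoters. TATAAA stood in 16 (44.4%), beside 48.1%, and AACCCT in 4, beside 9.7%. GTAAACA, a forkhead site, stood in 2, beside 16.5%, and ACGCGT (the MBF site) and CAGTCAC (the HomolD box) in 1 each, beside 3.25% and 4.71%. The counts are small and the matches only describe the letters. The promoter of adg2, which has a weak summit of 1.5-fold 58 bp before its start besides the strong one past its end, is shown as the 250 bases before the start (I:4081157-4081406, minus strand, ASM294v3), with ACGTCA, the reverse complement of TGACGT, in capitals.
adg2 promoter: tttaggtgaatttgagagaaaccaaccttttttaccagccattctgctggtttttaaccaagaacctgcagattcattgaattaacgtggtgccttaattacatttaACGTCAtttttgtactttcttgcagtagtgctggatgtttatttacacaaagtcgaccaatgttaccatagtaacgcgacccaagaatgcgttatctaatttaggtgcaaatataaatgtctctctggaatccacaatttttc

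For the 46 convergent summits away from small RNA genes, distances were measured to both 3′ ends. The nearer 3′ end was 94 bp away at the median. The gaps that held these summits had a median length of 294 bp, against 152 bp for all convergent gaps. A longer gap has more bases in which a summit can fall, so this difference cannot show a preference for longer gaps. Per kb of gap, these summits numbered 0.541 below 200 bp and 0.624 from 200 to under 500 bp. The density was 0.169 from 500 to under 1000 bp and 0.0299 in longer gaps. In 40 of the 46, both 3′ ends were within 500 bp of the summit. Any summit in a gap under 500 bp meets that limit, so the count follows from gap length. The summit fell in the middle 50% of the gap in 31 of 46 (67.4%, 52.0 to 80.5%). In mei4–act1 the summit was 72 and 128 bp from the ends, and in trm82–rpp0, beside a ribosomal stalk protein gene, 66 and 105 bp. The cdt1–utp15 summit, by contrast, was 12 bp from the end of the replication licensing gene cdt1 and 163 bp from utp15.

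**Figure D4:**
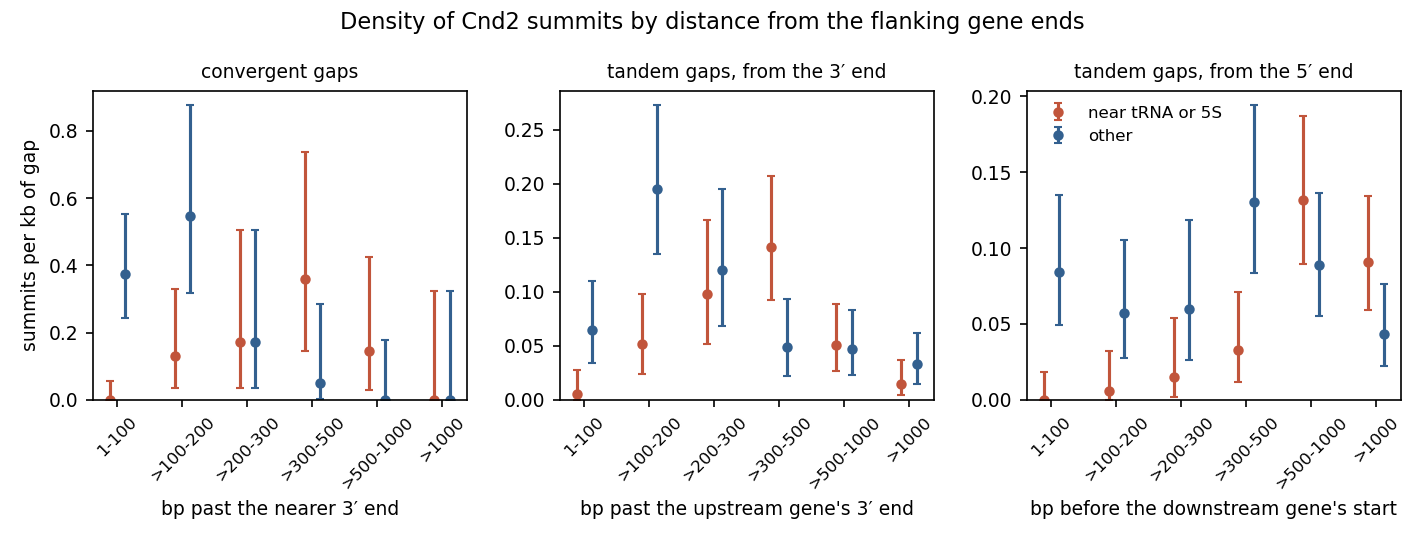
Summits per kb of gap (y axis) by distance from a gene end (x axis, bp) for summits near a tRNA or 5S gene (red) and for those over 500 bp from any small RNA gene (blue), with exact 95% intervals; the panels have y axes of different scale. Past the 3′ end in tandem gaps the density of the latter is 0.195 per kb at over 100 to 200 bp and 0.0327 beyond 1000 bp.

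The peaks reached back over the gene that ended at the gap more than forward over the gene that began there. Of the 92 tandem peaks away from small RNA genes, 56 overlapped the upstream gene (60.9%) and 28 the downstream gene (30.4%). The overlap was longer on the upstream side in 50 and on the downstream side in 13, and 28 overlapped neither. In 18 of the 92 the peak covered at least 50% of the upstream gene. The widest tandem peak, at bgs4, the gene of an essential beta-glucan synthase, was 7472 bp wide at 2.46-fold and covered 87.6% of bgs4, with its summit 276 bp past the end.

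Other long genes under these peaks were pma1, the plasma membrane proton pump, with 3490 bp covered (78.1%), tos4, a G1/S gene, with 77.7% covered, and pil1 with 75.5%. Of the peaks at tRNA and 5S genes in tandem gaps, 11 of 65 overlapped the upstream gene and 1 the downstream gene. In convergent gaps 5 of 17 overlapped a flanking gene, among them the peak at SPCTRNAASN.06, which covered 100% of SPCC417.15. In convergent gaps, 43 of the 46 other peaks overlapped a flanking gene and 26 overlapped both. These 46 peaks had a median width of 711.5 bp, in gaps with a median length of 294 bp. The 17 tRNA and 5S summits lay in gaps of 1012 bp at the median, so these overlap counts depend on gap length. The widest convergent peak, 5417 bp, lay between isp6, a vacuolar protease gene, and myp2, a myosin II heavy chain gene. It stood at 3.19-fold and covered 64.5% of myp2. Each peak is a single call around its own summit, so coverage of a gene here means an interval of the deposited list and not a level.

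Annotated non-coding RNAs of any class lay under many summits, but not clearly more often than under the gaps as a whole. In convergent gaps 22 of 67 summits (32.8%) fell inside a non-coding RNA of any class, beside 34.7% of the gap bases. In tandem gaps 93 of 163 did (57.1%), beside 57.2% of the gap bases. Those counts include the tRNA and 5S genes themselves. Long and other non-coding RNAs alone held 12 of the 67 convergent summits (17.9%, 9.61 to 29.2%), beside 32.1% of bases. They held 62 of the 163 tandem summits (38.0%, 30.6 to 46.0%), beside 56.3% of bases, so both shares lay below those of the bases. With tRNA, rRNA, small nucleolar and small nuclear RNA genes set aside, 10 of the 46 other convergent summits (21.7%, 10.9 to 36.4%) lay in a long or other non-coding RNA, beside 32.1% of bases. The matching count in tandem gaps was 55 of 92 (59.8%, 49 to 69.9%), beside 56.3% of bases. With RNAs within 250 bp of the summit counted too, the shares over all summits were 74.6% convergent and 93.9% tandem. The share of gap bases that near to an RNA was not computed, so these shares cannot be set beside the base shares above. Summits at tRNA and 5S genes in tandem gaps lay in a long non-coding RNA in 5 of 65 cases (7.69%).

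The strand of these RNAs was that of the opposite direction in most cases, as it was in the gaps. For 43 of the 92 tandem summits (46.7%, 36.3 to 57.4%) the long non-coding RNA ran against both flanking genes, beside 40.2% of bases. An RNA on the genes' own strand alone lay under 6 summits (6.52%), beside 6.08% of bases. Among the 12 strongest tandem summits 10 lay inside a long non-coding RNA, beside 56.3% of tandem gap bases. Among the 12 strongest convergent ones 1 did, namely SPNCRNA.5298 at pat1–mug124, beside 32.1% of convergent gap bases. These sets differ in RNA genes, as 1 of the tandem and 6 of the convergent summits were near a tRNA or 5S gene. Over all summits near such genes, a long non-coding RNA lay under 5 of 65 tandem and 1 of 17 convergent ones. At exg1 the summit lay in SPNCRNA.6162, on the gene's strand, and in SPNCRNA.6163, against it. At cdc22 it lay in SPNCRNA.3893, on the gene's strand, and in SPNCRNA.3891, against it, and at hel2–nmt1 (4.16-fold) it lay in SPNCRNA.1234, 746 bp before nmt1, the thiamine-repressed gene of thiamine synthesis.

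Grouped by function, genes for ribosomal proteins formed the largest list, and most of their summits lay past the 3′ end. The gene lists here and below were chosen with earlier results of these data known. Their shares beside those of all genes therefore describe the lists and do not test them. Counting summits over 500 bp from small RNA genes, 29 of 105 ribosomal protein genes whose 3′ end borders a convergent or tandem gap had one there (27.6%, 19.3 to 37.2%), beside 5.76% of all 3144 such genes. With summits near small RNA genes included, the counts were 33 of 105, beside 9.1%. At the 5′ side, 3 of 61 had a summit in the tandem gap before their start (4.92%, 1.03 to 13.7%), beside 4.21% of all 2112 such genes, or 7.48% with every summit. Past the 3′ end, the highest after rpl801 (4.30-fold) were rpl803 (3.65-fold) and rpl4301 (3.04-fold), both near a tRNA or 5S gene. Before the start, rpl2302 was the highest (4.83-fold), with its summit 473 bp away and 202 bp past knh2. All 3 summits before a start lay nearer the upstream gene's 3′ end.

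The ribosomal protein summits away from small RNA genes were about as high as the others. Their median fold was 1.73 over 28 summits, which border 29 such genes, beside 1.81 over all 138 such summits in convergent and tandem gaps. The lowest, past rps7, was 1.26. The summits past rps2 (2.55-fold), rpl35A01 (2.26-fold) and rpp0 (2.17-fold) were among the higher ones away from small RNA genes, and all 3 lay in convergent gaps. One gap joined a pair of ribosomal protein genes, rps001 and rpl2701, and its summit of 1.33-fold lay 99 and 12 bp from their ends.

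The smaller lists had few genes each, and their intervals were wide. They too were chosen with earlier results known, so membership may not be independent of the peaks. Their counts are of summits over 500 bp from small RNA genes, to be read beside 5.76% of all genes at the 3′ side. A convergent summit counts for the genes on both sides, so the lists share summits. The eng1–sod1 summit counts for mitosis and cell separation and for stress response. That of eno101–cut2 counts for glycolysis and for mitosis and cell separation, and that of eft202–rpl35A01 for translation factors and ribosomal proteins. Glycolysis genes had a summit past the 3′ end in 5 of 15 (33.3%, 11.8 to 61.6%), led by pgk1 (phosphoglycerate kinase, 3.19-fold), fba1 (aldolase, 2.70-fold) and pyk1 (pyruvate kinase, 2.42-fold). Translation factor genes had one in 4 of 12, led by tef103 and by tif51 (translation factor eIF5A, 3.41-fold). Stress response genes had one in 6 of 15, led by sod1, sty1 and trx1 (thioredoxin, 2.88-fold). None of the 9, 4 and 10 genes of these lists that begin at a tandem gap had one there by the same count, which allows shares of up to 33.6, 60.2 and 30.9%, beside 4.21% of all genes. With summits near small RNA genes included, 1 glycolysis gene (pgk1), 1 translation factor gene (tif211) and 2 stress genes (gpd1 and trx2) had one.

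By the same count, genes of mitosis and cell separation had a summit past the 3′ end in 6 of 23 (26.1%, 10.2 to 48.4%), with eng1 and adg2 at 13.3 and 11.5-fold. Cell wall genes had one in 4 of 16, with exg1 at 18.5-fold, bgs4 at 2.46-fold and ags1, the alpha-glucan synthase gene, at 1.83-fold. G1/S genes had one in 3 of 10, namely cdc22 (7.70-fold), tos4 (3.21-fold) and cdt1 (2.87-fold). Histone genes had one in 3 of 8, with hta1 at 2.09-fold, hhf1 at 1.37-fold and pht1, the gene of the H2A.Z variant, at 1.30-fold. The histone genes have close copies, so the doubt about reads with several matching places applies to them too.

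Chaperone genes had a summit past the 3′ end, over 500 bp from small RNA genes, in 2 of 12, sks2 at 2.47-fold and hsp9 at 1.68-fold, and membrane transporter genes in 3 of 24, among them pma1 at 2.53-fold, beside 5.76% of all genes. With every summit counted, 6 of the 24 transporter genes had one, beside 9.1% of all genes. Transporter genes also had one before the start in 3 of 15, beside 4.21%, or in 4 of 15 with every summit, beside 7.48%. The transporter list includes car1, which the annotation names an arginase gene, and its summit is among the 4. None of the 17 genes of condensin, cohesin and the SMC5/6 complex that end at such a gap had one, which allows a share of up to 19.5%. The upstream genes of gaps with a summit away from small RNA genes had a median length of 1490 bp, against 1758 bp for all such genes.

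**Figure D5:**
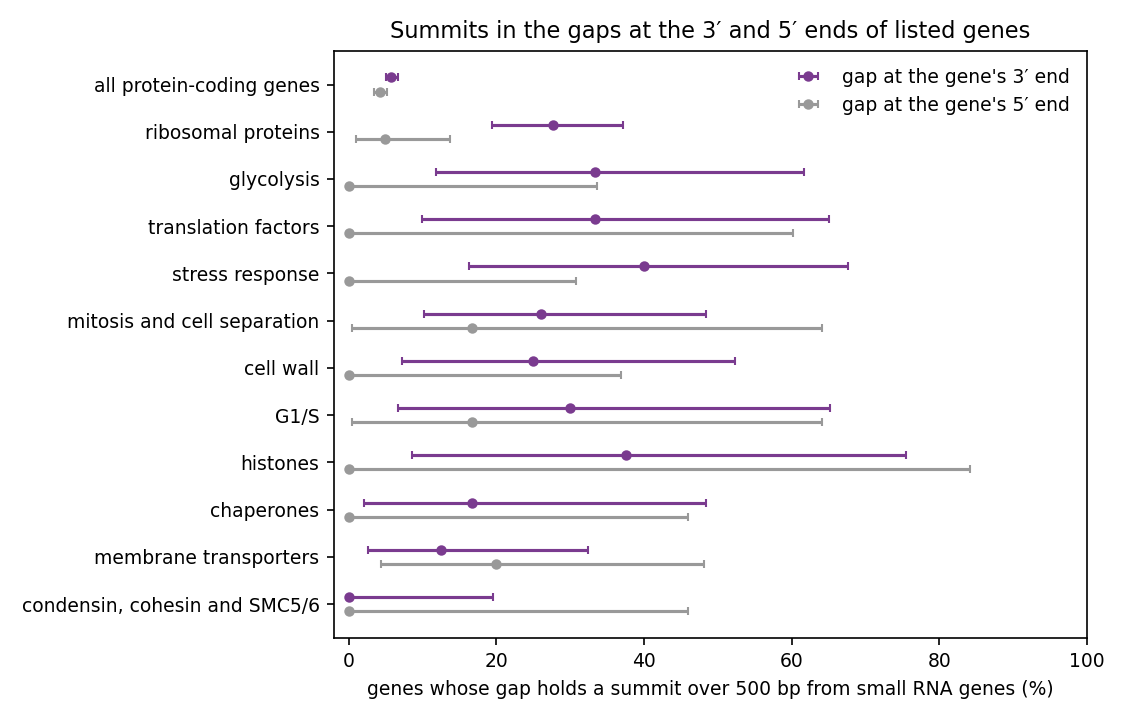
Share of genes in each functional list with a condensin summit, over 500 bp from small RNA genes, in the gap past their 3′ end or before their 5′ end (x axis, percent of genes bordering such a gap), with exact 95% intervals. Ribosomal protein genes stand at 27.6% past the 3′ end and 4.92% before the start, beside 5.76% and 4.21% of all genes. The lists were chosen with earlier results of these data known.

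Most gaps with a summit held 1, and 2 convergent and 4 tandem gaps held more. In the clr3–rpl4301 gap, the longest convergent gap with a summit (2367 bp), 3 summits of 2.70, 2.38 and 3.04-fold sat at SPBTRNAGLN.01, SPBTRNAGLN.02 and SPBTRNAGLN.03. In tef3–SPCC417.09C, 1 summit was 7 bp from sup9 and the other inside SPRRNA.05. In rrp41–tif211 the summits sat at SPATRNATHR.04 and SPRRNA.14, and in mde6–ubr11 at SPATRNACYS.03 and SPATRNAPHE.01. These 4 gaps thus had a separate summit for each small RNA gene named.

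The other gaps with several summits were free of small RNA genes at the summits. The rpl1002–per1 gap held 3 summits of 1.77, 1.67 and 1.30-fold along 4534 bp, each inside long non-coding RNAs. The pho84–pho1 gap, between a phosphate transporter and an acid phosphatase gene, held 1 of 1.82-fold at 154 bp past pho84 and 1 of 1.77-fold inside nc-pho1. The longest tandem gap with a summit, isp4–rpl26, measured 5387 bp and held a summit 324 bp past rpl26 at 1.60-fold.

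Chromosome III had the largest share of convergent gaps with a summit. The shares were 7.76% on chromosome I, 12.2% on II and 23.3% (15.5 to 32.7%) on III, and for tandem gaps 6.80%, 6.75% and 10.8%. The median background under the convergent summits was 360 on I, 386 on II and 531 on III, and the part of this difference in the shares was not tested. The median folds of the 2 gap types on the 3 chromosomes lay between 2.1 and 2.31.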

How the data were processed

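The deposited peak list gives, per the file headers, a pileup (a signal: fragment coverage at the summit), a fold enrichment (a ratio of pileup to a local background from the scaled input) and −log10 p-values and q-values, all computed by the authors' peak caller. Per the file headers, MACS 2.1.0.20150731 compared the 1 ChIP with the 1 input library at a q-value cutoff of 0.05, keeping 1 fragment per position (34.7% of ChIP and 10.4% of input fragments were removed, which can lower tall peaks). Per the submitters' processing notes, BWA 0.7.12 was used and the build was ASM294v2. The header's effective genome size is 1.87e+09, while the chromosomes total 12.6 Mb, so a genome-wide floor on the background was nearly absent; folds were also recomputed with a background of no less than the genome mean of 429, which kept 218 of the 230 summits.

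Genes were taken from RefSeq (ASM294v3, annotated untranslated regions included). Between the builds, tRNA gene middles lay −33.25 to 29.75 bp (medians over 9 chromosome stretches, 110 genes) from the nearest summit, so distances below about that size are uncertain. Printed sequences are at the gene coordinates of ASM294v3. Background at a summit was recovered as (pileup + 1) / fold − 1. Intervals are exact at 95%: Clopper-Pearson for shares, Poisson for densities. Gap assignment was checked on simulated summits. Python 3.11.15, pandas 2.3.3, numpy 2.4.6, scipy 1.17.1 and matplotlib 3.10.9 were used.

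The regions and the 11 gene lists were chosen with earlier results of these data known. Genes were named by rule: the flanks of the 12 highest folds in each gap type, up to 3 genes per list, gaps with several summits, and the widest peak and longest gap; the other genes named were chosen after their values were seen. Some genes that the rule names are not reported here. Alternatives covered fold and q-value thresholds, background, gene bounds, overlap, gap length, end distance and small RNA genes.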

Additional observations from a re-analysis of the deposited data

How the results depend on the processing

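Of the values recomputed under the alternatives, 55 stayed within the limit set (their counting interval, or a factor of 1.5 for a count), 25 left it and 1 changed direction: the ratio of the median peak height in convergent to tandem gaps was 0.949 by fold and 1.08 by pileup. With folds at or above the list median, the median folds were 2.40 and 2.57 (convergent and tandem), the shares of gaps with a summit 8.72% and 5.54%, and the share of tandem summits nearer the 3′ end 75.8%. Without tRNA and 5S summits, 98 tandem summits remained in the count, with a median fold of 1.76, in 4.50% of gaps (divergent 2.35%), and 55.1% lay nearer the 3′ end. With a background of no less than the genome mean, the tandem median fold was 1.99. With coding sequence bounds, which add the untranslated regions to the gaps, there were 154 convergent summits with a median fold of 1.82, and 53.8% of tandem summits lay nearer the 3′ end. Counting any overlap of 1 bp between peak and gap gave 26.6% and 9.04% of gaps, and gaps of at least 200 bp gave 23.9% and 9.58%. Within 250 bp of a non-coding RNA lay 74.6% and 93.9% of summits, for which no matching share of gap bases was computed. Inside one, without tRNA, rRNA, snoRNA and snRNA genes, lay 17.9% and 38.0%, beside 32.1% and 56.3% of gap bases. Alternatives added after seeing the data, without all small RNA summits, gave 8.92% and 4.21% of gaps and 54.3% nearer the 3′ end. The ratio of convergent to tandem density over all gap lengths lay between 2.62 and 3.69 in the alternatives run for it. No paired analysis was possible because there was 1 library per group. With 1 list from 1 ChIP library, the counting intervals do not cover variation between cultures.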

Other observations

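In 3 neighbouring tandem gaps between the genes SPBPB10D8.04C to SPBPB10D8.07C, on chromosome II, the summits lay at nearly the same place, 712, 715 and 711 bp from the downstream start. Their folds were 1.91, 1.85 and 1.71 over backgrounds of 239, 246 and 250, and none of the 3 was kept when the background was set to no less than the genome mean. How reads with several matching places were treated is not given in the sources used here, and whether these 3 summits are independent was not tested.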
